A study of Rattus norvegicus with 4 samples.

Results

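Fibroblast growth factors (FGFs) and their receptors were followed in rat retinal neurospheres through 17 probe sets of 8 genes, out of 31099 probe sets and 14217 singly named genes on the array. The genes are the secreted ligands Fgf19 (called Fgf15 in older rodent usage), Fgf1, Fgf2 and Fgf9, the intracellular FGF homologue Fgf13, and the receptors Fgfr1, Fgfr2 and Fgfr3. A probe set, a group of short probes read together, was included when the platform's annotation table gave it exactly 1 gene symbol and that symbol was one of the 8. All 8 genes were represented, and their gene identifiers matched the same symbols in the RefSeq table of assembly GRCr8.

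Retinal cells of Sprague Dawley rat embryos at embryonic day 18 were grown as neurospheres, which are floating clusters of dividing cells, in epidermal growth factor (EGF) alone (2 arrays) or in EGF to which endothelial cell conditioned medium was added (2 arrays). EGF was thus common to both groups, and the labels name no altered allele. Each culture came from retinae pooled over several embryos (10 for the first pool, per the series description), and a further pool gave the replicate, so n = 2 per group. Whether same-numbered cultures of both groups came from the same pool is not stated. The source of the endothelial cells, the dose of either agent and the time in culture are not given in the sources used here.

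FGFs are secreted signals that, together with heparan sulfate on cell surfaces, bring receptor tyrosine kinases of the FGFR family into pairs. Active receptors pass the signal through adaptor proteins to the Ras and ERK kinase cascade, which switches on ETS transcription factors and, as a brake on itself, Sprouty proteins and ERK phosphatases. In the developing eye FGF signals are known for setting up neural retina and lens, for starting retinal neurogenesis and for keeping progenitors dividing. EGF acts on a different receptor but feeds the same ERK cascade.

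Values are log2 signals. The medians of the 4 deposited arrays ranged from 6.03 to 6.25 log2 with EGF alone and from 6.56 to 6.84 log2 with conditioned medium. A difference of measurement scale and a real shift over all genes cannot be told apart here. Values and differences are given after quantile normalization, unless they are called deposited. It gives every array the same distribution and so removes either kind of shift. All differences are conditioned medium minus EGF alone. A gene is said to rise or fall only where limma's adjusted p was under 0.05 with the same sign on deposited, median-centred and quantile normalized values. The median difference of all 31042 probe sets tested was 0.48 log2 as deposited, -0.09 log2 median centred and -0.01 log2 quantile normalized. A probe set is called dim where its deposited mean over the 4 arrays was under 4.77 log2, the lowest 30% of probe sets. Of the 17 FGF probe sets, 8 were dim by this measure: all those of Fgf1 and Fgf2, 3 of the 5 for Fgfr2 and 1 of the 2 for Fgfr3.

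Other features of the arrays moved with the medium. Over all genes read through their brightest probe set, 6.59% rose and 1.35% fell, the shares against which the following marker counts stand. Of 9 retinal progenitor markers 3 rose and 0 fell (summed linear signal 19905 to 21667 in EGF alone against 23044 to 23931 with conditioned medium), and one that did not, Pax6, had deposited means of 12.66 and 12.80 log2. Of 8 Müller glia markers 3 rose and 0 fell (summed signal 22808 to 24662 against 30735 to 32638). Of 10 measured microglia markers 6 rose and 0 fell, and the summed linear signal of that list was 541 to 587 in EGF alone and 1044 to 1088 with conditioned medium. Of 12 pericyte and mesenchymal markers 6 rose and 0 fell (summed signal 719 to 849 against 2266 to 2320), and of 10 lens markers 2 rose and 0 fell (326 to 331 against 402 to 448). Of 9 endothelial markers 0 rose and 0 fell (summed signal 4269 to 4444 against 5686 to 5747), and 1 passed as higher on the quantile normalized scale. Of the 9, 5 were dim (Pecam1, Tek, Tie1, Emcn and Erg) and the others were not. Pecam1 had deposited means of 3.13 and 3.42 log2. Of 7 photoreceptor markers 5 fell and 0 rose. No marker was at 0 on any array. The gap between the 3′ and 5′ actin control probe sets, which widens with RNA degradation, was 1.99 to 2.08 log2 in EGF alone and 1.37 to 1.54 log2 with conditioned medium. The part of these differences in the results below was not tested. In such mixed cultures fewer cells of a type and less RNA per cell cannot be told apart.

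The RefSeq promoter table (GRCr8, 250 bases before to 50 bases after a gene's start) holds entries for 6 of the 8 genes. Fgf19 and Fgfr1, which rose, have no entry, so Fgfr3 is the only gene that rose with a window. The windows of Fgfr3, of Fgfr2, a receptor that did not pass, and of Fgf9, a ligand that did not pass, are shown. They describe base composition, which cannot be compared with the response when only Fgfr3 stands for the genes that rose. Capitals mark the GC box (GGGCGG on either strand), a motif found in many promoters that lack a TATA box.
Fgfr3: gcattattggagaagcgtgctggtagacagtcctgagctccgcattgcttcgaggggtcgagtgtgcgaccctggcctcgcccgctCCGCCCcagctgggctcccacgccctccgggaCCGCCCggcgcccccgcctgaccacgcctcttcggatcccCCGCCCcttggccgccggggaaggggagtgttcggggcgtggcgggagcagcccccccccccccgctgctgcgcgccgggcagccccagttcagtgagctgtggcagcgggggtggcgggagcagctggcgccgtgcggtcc
Fgfr2: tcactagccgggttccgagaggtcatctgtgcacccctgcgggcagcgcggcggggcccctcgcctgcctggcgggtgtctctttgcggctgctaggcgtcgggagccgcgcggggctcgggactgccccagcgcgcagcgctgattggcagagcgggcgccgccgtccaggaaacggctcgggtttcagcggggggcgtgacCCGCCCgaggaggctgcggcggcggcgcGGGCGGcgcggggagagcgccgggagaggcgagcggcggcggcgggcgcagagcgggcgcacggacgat
Fgf9: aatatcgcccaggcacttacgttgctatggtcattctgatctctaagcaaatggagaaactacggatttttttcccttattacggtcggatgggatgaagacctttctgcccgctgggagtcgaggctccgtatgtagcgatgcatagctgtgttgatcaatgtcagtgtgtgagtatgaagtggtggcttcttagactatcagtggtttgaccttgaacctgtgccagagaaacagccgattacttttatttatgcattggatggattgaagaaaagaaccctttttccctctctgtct
The Fgfr3 window lies at chr14:81227160-81227459 on the minus strand, the Fgfr2 window at chr1:194280865-194281164 on the minus strand and the Fgf9 window at chr15:36327108-36327407 on the plus strand. G and C made up 74.7% of the Fgfr3 window and 77.7% of the Fgfr2 window, against 44.7% for Fgf9 and a median of 51.7% over all 33469 windows. The GC box occurred 3 times in Fgfr3, 2 times in Fgfr2, 1 time in Fgf1 (48.3% G and C) and 0 times in Fgf9, Fgf2 and Fgf13. Of all windows 33.1% held at least 1. No window of the 6 genes held the ETS core CCGGAA (15% of all windows), the TATA box TATAAA (14.2%) or the TCF core CTTTGA (16.1%), each searched on both strands. The AP-1 motif TGANTCA (7.33% of all windows) occurred 1 time, in Fgf13. The E-box CANNTG (72.1% of all windows) occurred 2 times in Fgfr3, 1 time each in Fgfr2, Fgf2 and Fgf9, and 0 times in Fgf1 and Fgf13. These matches describe letters in a window and are not evidence of binding.

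With conditioned medium 4 of the 17 FGF probe sets rose and 0 fell, and the 4 belonged to 3 genes, Fgf19, Fgfr1 and Fgfr3. Over all probe sets tested, 4.92% rose and 0.986% fell. The median difference of the 17 probe sets was 0.21 log2, and 0.72 log2 as deposited. On the quantile normalized scale the groups did not overlap for 7 probe sets in the higher and 3 in the lower direction, where 27% and 29.4% of all probe sets were so separated. On that scale alone 4 passed as higher and 1 as lower, against 8.2% and 8.17% of all. As deposited 8 were higher and 0 lower (31.2% and 0.989% of all), and median centred 4 were higher and 3 lower (6.26% and 16.8% of all). The plot of signals by array shows the 3 genes beside dim members and bright but steady ones.

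**Figure D1:**
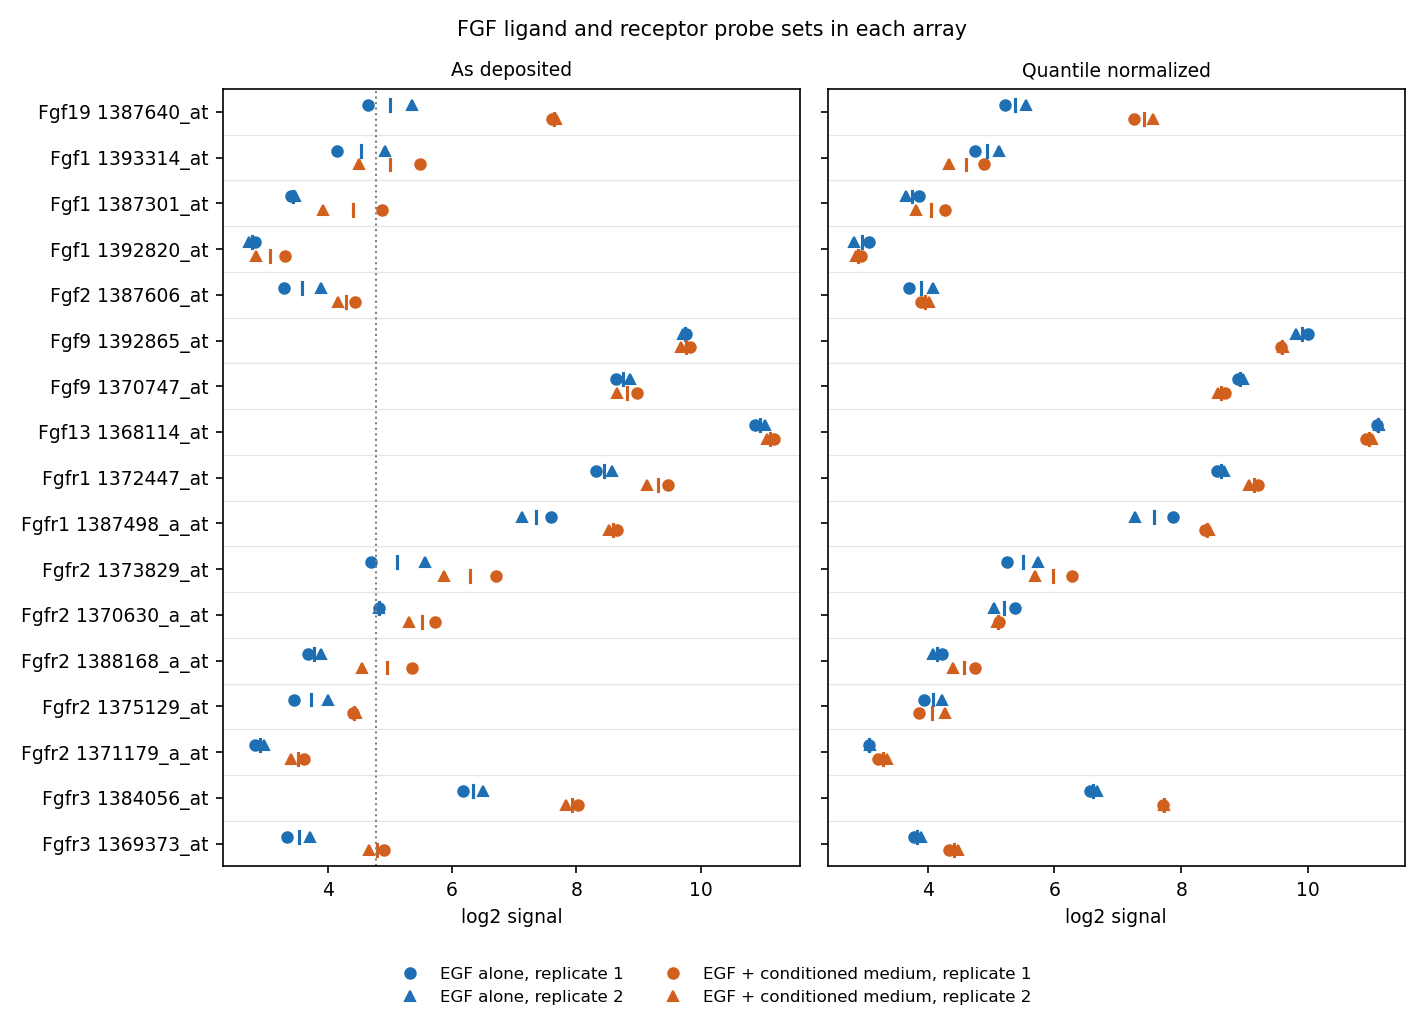
Log2 signal of each of the 17 FGF probe sets in each of the 4 arrays, as deposited (left) and quantile normalized (right); blue is EGF alone, orange is EGF with conditioned medium, circles are replicate 1, triangles replicate 2, short bars the mean of 2 arrays, and the dotted line the 4.77 log2 limit for dim probe sets. Fgf19, both Fgfr1 probe sets and the brighter Fgfr3 probe set have orange points to the right of blue in both panels. So do the dim Fgfr3 probe set and Fgfr2 1388168_a_at and 1371179_a_at, which did not pass. Fgf9 overlaps as deposited and is lower after normalization.

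Among the secreted ligands, Fgf19 had the largest difference. Fgf19 is an FGF with weak binding to heparan sulfate that is made by progenitors in the embryonic brain and retina and, in the adult, acts as a gut hormone. Its probe set 1387640_at read 5.22 and 5.55 log2 in the EGF arrays against 7.26 and 7.55 log2 in those with the medium, and as deposited 4.64, 5.36, 7.61 and 7.67 log2 in the same order. Both arrays with conditioned medium were far above both arrays without it. The mean went from 5.38 ± 0.24 to 7.41 ± 0.21 log2 (SD, n = 2 per group), a 4.07-fold rise (2.02 ± 0.21 SE, 95% interval 1.55 to 2.49, limma adjusted p = 1.60e-04). Replicates differed by 0.34 log2 in EGF alone and 0.29 log2 with conditioned medium, where the median gap of all probe sets was 0.16 and 0.14 log2, so the shift was larger than the spread between its own replicates. As deposited, EGF replicate 1 lay under the limit for dim probe sets and EGF replicate 2 above it.

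Fgf9, a ligand made in the developing retina, gave nearly equal deposited signals in the 2 groups. Probe set 1392865_at read 9.77, 9.71, 9.83 and 9.68 log2 as deposited (EGF replicates 1 and 2, then conditioned medium replicates 1 and 2), and the groups overlapped. After quantile normalization it read 10.00, 9.81, 9.57 and 9.61 log2, with both conditioned-medium arrays lower. Its difference was -0.31 ± 0.09 log2 (SE, limma adjusted p = 0.0307), against -0.55 log2 (adjusted p = 0.00320) median centred and 0.02 log2 (adjusted p = 0.935) as deposited, so the sign depended on the scaling. The other Fgf9 probe set, 1370747_at, read 8.89, 8.97, 8.69 and 8.58 log2 after normalization. It gave -0.29 ± 0.09 log2 (SE, adjusted p = 0.0553) and 0.06 log2 as deposited. Averaging both put Fgf9 at -0.30 ± 0.08 log2 (SE, limma adjusted p = 0.0181), which again was not carried by the deposited values. Whatever the scaling, the size did not exceed 0.55 log2 for either probe set.

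Fgf1 and Fgf2, the acidic and basic FGFs, leave cells without a classical signal peptide and are known as survival factors for retinal neurons. The only Fgf2 probe set, 1387606_at, read 3.71 and 4.08 log2 in the EGF arrays against 3.89 and 4.03 log2 in those with the medium, so the groups overlapped. Its difference was 0.06 ± 0.23 log2 (SE, 95% interval -0.46 to 0.58, limma adjusted p = 0.902). Fgf1 probe set 1393314_at read 4.74, 5.13, 4.89 and 4.33 log2 in the same order, 1387301_at read 3.86, 3.66, 4.28 and 3.82 log2, and 1392820_at read 3.07, 2.84, 2.95 and 2.87 log2. The 3 differed by -0.32, 0.29 and -0.05 log2, all with overlapping groups and none past the threshold (lowest limma adjusted p = 0.474). One of them, 1387301_at, passed as deposited alone (0.97 log2, limma adjusted p = 0.0349), where 31.2% of all probe sets were called higher. All 4 of these probe sets were dim, and no change of either ligand was detectable under all 3 scalings.

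Fgf13 belongs to the FGF homologous factors, which stay inside the cell, bind voltage-gated sodium channels and microtubules and do not act as typical receptor ligands. Probe set 1368114_at read 11.09 and 11.11 log2 in the EGF arrays against 10.92 and 11.00 log2 in those with the medium. The groups were separate but close, and the difference was -0.14 ± 0.07 log2 (SE, 95% interval -0.29 to 0.02, limma adjusted p = 0.230). It was 0.18 log2 as deposited (adjusted p = 0.360) and -0.39 log2 median centred (adjusted p = 0.0145), so no direction held under all 3 scalings.

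Of the receptors, Fgfr1 rose in both of its probe sets. Fgfr1 is the FGF receptor most widely found in neural progenitors and mesenchymal cells. Probe set 1372447_at read 8.57 and 8.68 log2 in the EGF arrays and then 9.21 and 9.06 log2 when the medium was added, a 1.43-fold rise (0.51 ± 0.10 SE, limma adjusted p = 0.00439). Median centred, its difference was only 0.30 log2 and close to the threshold (limma adjusted p = 0.0448). Probe set 1387498_a_at, whose suffix marks probes shared by transcripts of 1 gene, read 7.87 and 7.27 log2 against 8.38 and 8.44 log2, a 1.79-fold rise (0.84 ± 0.17 SE, limma adjusted p = 0.00704). In both, every conditioned-medium array was above every array with EGF alone. The EGF replicates of the second probe set were 0.59 log2 apart, which is more than its gap between the groups' nearest arrays. The mean of both probe sets differed by 0.68 ± 0.10 log2 (SE, limma adjusted p = 0.00157).

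Fgfr3, a receptor known from dividing progenitors and glia, rose in its brighter probe set. This probe set, 1384056_at, read 6.56 and 6.67 log2 in the EGF arrays against 7.71 and 7.73 log2 in those with the medium. Replicates lay within 0.11 and 0.02 log2 of each other. The rise was 2.16-fold (1.11 ± 0.15 SE, 95% interval 0.79 to 1.43, limma adjusted p = 5.64e-04), and 1.60 log2 as deposited. The dim probe set 1369373_at read 3.78 and 3.90 log2 against 4.33 and 4.48 log2, and its difference of 0.57 ± 0.23 log2 (SE, limma adjusted p = 0.129) did not pass. Averaging both probe sets gave 0.84 ± 0.18 log2 (SE, limma adjusted p = 0.00915), past the threshold under all 3 scalings.

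Fgfr2, the receptor that serves epithelia and glia through alternatively spliced forms, had 5 probe sets and none rose or fell. The brightest, 1373829_at, read 5.25 and 5.74 log2 in the EGF arrays against 6.27 and 5.70 log2 in those with the medium. Replicates were 0.49 and 0.57 log2 apart and the groups overlapped, with a difference of 0.48 ± 0.28 log2 (SE, 95% interval -0.14 to 1.10, limma adjusted p = 0.288). Probe set 1370630_a_at read 5.38, 5.04, 5.13 and 5.09 log2 (EGF first), and 1388168_a_at read 4.22, 4.08, 4.74 and 4.40 log2. Probe sets 1375129_at (3.94, 4.22, 3.86 and 4.28 log2) and 1371179_a_at (3.07, 3.09, 3.22 and 3.36 log2) were dim, as was 1388168_a_at. Of these 4 the groups were separate for 1388168_a_at and 1371179_a_at. The 4 differed by -0.10 to 0.42 log2, with limma adjusted p from 0.305 to 0.990. As deposited all 5 were higher, by 0.61 to 1.17 log2, and 2 of them passed there alone. The mean of the 5 differed by 0.20 ± 0.20 log2 (SE, limma adjusted p = 0.527). The interval for 1373829_at includes differences as large as those of both Fgfr1 probe sets.

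**Figure D2:**
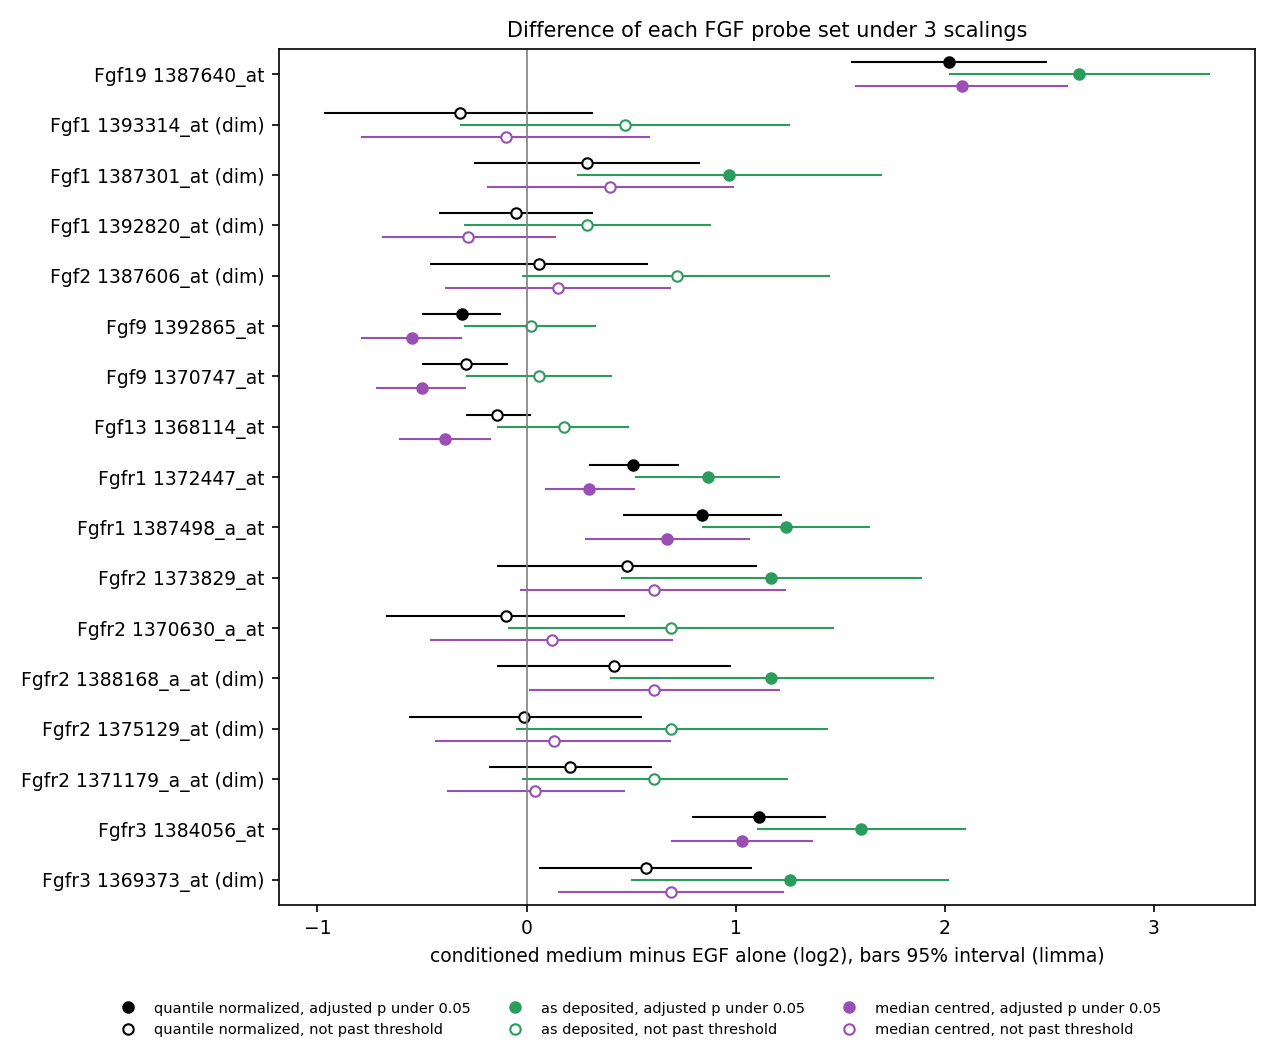
Difference between conditioned medium and EGF alone (log2) for each FGF probe set on quantile normalized (black), deposited (green) and median-centred (purple) values, with limma's 95% interval; filled points had an adjusted p under 0.05 on that scale, and dim probe sets are named so. The 4 probe sets filled in all 3 colours are those of Fgf19, Fgfr1 (both) and Fgfr3 (the brighter); Fgf9 is filled on 1 or 2 scales and lies at 0.02 and 0.06 log2 as deposited.

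These calls rest on 4 arrays. With any 1 array left out, 0 of the 31042 probe sets passed under quantile normalization (5536 to 7183 had an unadjusted p under 0.05 in limma), so no FGF call under all 3 scalings survived the loss of either EGF array or either array of the other group. The same fits called 2376 to 10478 probe sets as deposited and 4563 to 7409 median centred. On those scales limma's prior was 18.05 degrees of freedom or more and far outweighed the arrays that were left. Calls there rest on the trend with intensity, so they do not test the replicates, and passes of FGF probe sets are not counted. On the quantile normalized scale the differences stayed at 1.78 to 2.25 log2 for Fgf19, 1.03 to 1.15 log2 for the brighter Fgfr3 probe set, and 0.44 to 0.59 and 0.54 to 1.12 log2 for those of Fgfr1. Without the intensity trend in limma the Fgfr1 probe sets missed the threshold (adjusted p = 0.0899 and 0.107), and Fgf19 (adjusted p = 0.0328) and Fgfr3 (adjusted p = 0.0345) kept it. The calls under all 3 scalings in the pathway lists below were likewise lost with any 1 array left out.

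The genes most like each of the 3 were sought among probe sets of other named genes, by the Euclidean distance between the 4 centred values. Close values and like differences follow from this choice, and shared regulation was not tested. Nearest to Fgf19 were the C-type lectin receptor Cd93 (distance 0.191 log2, difference 2.10 log2), the collagen Col5a2 (0.229 log2, 2.12 log2) and the TWEAK receptor Tnfrsf12a (0.230 log2, 1.93 log2). Nearest to the brightest Fgfr1 probe set were the mitochondrial carrier Slc25a34 (0.0262 log2), the quinone reductase Nqo1 (0.0273 log2) and the receptor kinase Tyro3 (0.0310 log2), with differences of 0.50 to 0.54 log2. Nearest to the brighter Fgfr3 probe set were the collagen Col5a1 (0.0195 log2), Plekhg2 (0.0460 log2) and Kctd17 (0.0498 log2), with differences of 1.07 to 1.13 log2.

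Further genes of the pathway, and sodium channel subunits, were read in 6 groups, each gene through its brightest probe set. Read that way, 6.59% of all 14217 genes rose and 1.35% fell, as given for the markers. Not every listed gene had a probe set with 1 symbol. Measured were 14 of 20 transducers and 10 of 13 feedback inhibitors and ETS factors. Of the receptors and co-receptors 8 of 9 were measured, and of the sodium channel subunits 8 of 9.

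**Figure D3:**
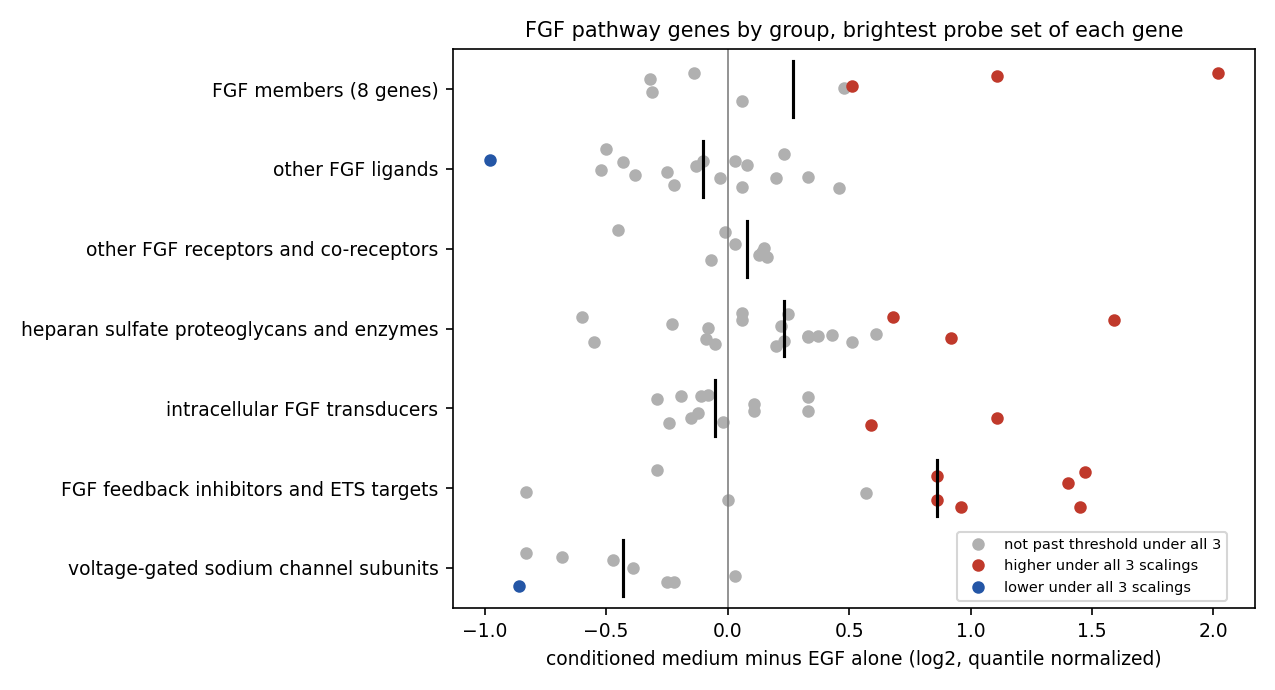
Quantile normalized difference (log2) of the 8 FGF genes and of the 6 groups of further genes, 1 point per gene for its brightest probe set. Red points were higher and blue points lower under all 3 scalings, grey points neither, and black bars are medians. The feedback inhibitors and ETS targets hold 6 red points and a median of 0.86 log2. The group labelled other FGF ligands, which includes intracellular homologous factors, centres on -0.10 log2.

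Of 17 other genes of the FGF ligand family 0 rose and 1 fell, and the median was -0.10 log2 (deposited 0.62 log2), and 12 were dim. This group, called other FGF ligands here, also holds the intracellular Fgf11, Fgf12 and Fgf14, and no secreted ligand in it fell. The gene that fell was Fgf12, like Fgf13 an intracellular homologous factor. It read 8.98 and 9.01 log2 with EGF and 7.98 and 8.04 log2 after the medium (-0.98 ± 0.09 SE, limma adjusted p = 9.83e-05), and its other probe sets (-0.60 and -0.64 log2) did not pass under all 3 scalings. Of 8 sodium channel subunits, partners of those factors, 0 rose and 1 fell: the beta subunit Scn3b, at -0.86 ± 0.10 log2 (SE, limma adjusted p = 2.92e-04). Both calls were lost without the intensity trend. On the quantile normalized scale alone 0 subunits passed as higher and 2 as lower, Scn3b and Scn3a (-0.83 log2). Scn3a also passed median centred but not as deposited. In the same arrays 5 of 7 photoreceptor and 2 of 10 amacrine and horizontal cell markers fell. On the quantile normalized scale alone 7 and 6 of them passed as lower and 0 as higher. The part of those cells in the falls of Fgf12 and Scn3b was not tested.

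Of 8 further receptors, co-receptors and binding proteins 0 rose and 0 fell (median 0.08 log2, deposited 0.48 log2), with the smallest p-values for Fgfrl1, a receptor without a kinase domain (0.15 ± 0.08 log2 SE, limma adjusted p = 0.218; unadjusted p = 0.0735), and the binding protein Fgfbp1 (-0.45 ± 0.27 log2 SE, limma adjusted p = 0.310). None of the 8 had an unadjusted p under 0.05 on the quantile normalized scale. Of 21 heparan sulfate proteoglycans and chain-building enzymes 3 rose and 0 fell (median 0.23 log2, deposited 0.56 log2). All 3 are core proteins: the glypicans Gpc4 (1.59 ± 0.08 SE, limma adjusted p = 2.33e-06) and Gpc6 (0.92 ± 0.12 SE) and the syndecan Sdc2 (0.68 ± 0.08 SE). The mean of the 4 Gpc6 probe sets did not pass, and Sdc2 was lost without the trend. On the quantile normalized scale alone 7 of the 21 passed as higher and 2 as lower. Those lower were the glypican Gpc2 (-0.60 log2) and the enzyme Hs3st1 (-0.55 log2), which also passed median centred but not as deposited. In the same arrays 6 of 12 pericyte and mesenchymal markers rose, and their part was not tested.

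Of 14 intracellular transducers 2 rose and 0 fell (median -0.05 log2, deposited 0.33 log2), the adaptor Shc1 (1.11 ± 0.09 SE, limma adjusted p = 4.65e-05) and the ERK kinase Map2k1 (0.59 ± 0.08 SE, limma adjusted p = 6.55e-04), the latter lost without the trend. Of 10 feedback inhibitors and ETS factors 6 rose and 0 fell, and the median was 0.86 log2 (deposited 1.17 log2, median centred 0.61 log2). These genes also answer to EGF and other ERK inputs, and both groups received EGF. The input behind the rises, and the part of the cell types whose markers rose, were not tested. The largest were Etv4 (1.47 ± 0.21 SE), the Sprouty inhibitor Spry1 (1.45 ± 0.15 SE) and Etv1 (1.40 ± 0.07 SE), followed by Spry4 (0.96 ± 0.08 SE), Etv5 (0.86 ± 0.08 SE) and the ERK phosphatase Dusp6 (0.86 ± 0.07 SE). The other Etv4 probe set (0.66 log2, limma adjusted p = 0.0608) did not pass. The mean of both Etv4 probe sets was 1.06 log2 and passed, against 1.23 log2 for the mean of the 5 Etv1 probe sets. Dusp6 and Etv5 were lost without the trend, and the mean of both Etv5 probe sets did not pass. Spry2 (0.57 log2) did not pass median centred, and Spry3 (-0.83 log2) passed on the quantile normalized scale only.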

How the data were processed

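RNA of 4 neurosphere cultures was hybridized to Affymetrix Rat 230 2.0 arrays. Per the labels and the series description, the authors summarised them by RMA (robust multi-array average) in GenePattern and deposited log2 values; version and options: not given in the sources used here. Array medians differed, so values were quantile normalized over all 31099 probe sets. The 57 control probe sets were then removed, and conditioned medium was compared with EGF alone over 31042 probe sets, with no filter, in limma 3.58.1 (R 4.3.3; lmFit, then eBayes with its trend option; two-sided p adjusted by Benjamini-Hochberg, threshold 0.05). Deposited and median-centred values were fitted the same way. On every scale limma's prior, the spread expected from intensity, outweighed the 2 arrays per group. Its degrees of freedom were 8.3 quantile normalized, 10.76 median centred and unlimited as deposited. As deposited each spread came wholly from the trend with intensity. Very small adjusted p-values on any scale rest largely on that trend. Probe sets with 1 symbol (20826, for 14217 genes) named genes. No count depth applies to arrays, and their number limits the precision.

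The FGF genes and the lists were chosen with earlier results of these data known. Named were all FGF probe sets, per pathway list up to 5 genes per direction past the threshold under all 3 scalings (otherwise the 2 smallest p), and 3 nearest patterns per called FGF gene. Spry2, Spry3, the sixth feedback gene (Dusp6), the marker genes and the other genes of the closing section were named after their values were seen. The limma fit on quantile normalized values was tested on simulated data with noise drawn from the trend with intensity. That simulation covered neither the call under all 3 scalings nor the fits with an array left out. Alternatives were a filter on dim probe sets, no trend, the replicate as a block, each array left out, and gene means. Nothing ties the arrays of 1 group to separate animals beyond the pools described, so p-values concern these cultures only. The spread behind them was largely taken from the trend over probe sets of like intensity.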

Additional observations from a re-analysis of the deposited data

How the results depend on the processing

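With any 1 array left out, every count under all 3 scalings, and both FGF counts on the quantile normalized scale, went from 0 to 0 over the 4 fits, in which the lone array of a group is assumed to vary like the other group. After the data were seen, the lowest 30% of probe sets was left out as well. The FGF probe sets that rose then ranged from 0 to 3, proteoglycans from 0 to 4, transducers from 0 to 2 and feedback genes from 0 to 7, and the falls of other ligands and of sodium channel subunits from 0 to 0. All probe sets ranged from 0 to 1042 higher and from 0 to 120 lower (715 and 73 without EGF replicate 2); the zeros came without either conditioned-medium array. Fgf19 and Fgfr3 passed in 2 of those 4 fits. Without the intensity trend, 2 FGF probe sets rose (2 on the quantile normalized scale, where 0 were lower), 1 transducer rose, 0 other ligands and 0 sodium channel subunits fell, and 558 probe sets of all rose and 92 fell. As deposited, 8 FGF probe sets were higher and 0 lower, and Fgf9 1392865_at turned to 0.02 log2; median centred 3 were lower, and with the lowest 30% left out 2 were lower. With the mean of all probe sets of a gene, 0 other ligands fell. With the replicate number as a block, 0 other ligands and 0 sodium channel subunits fell (Fgf12 and Scn3b, deposited adjusted p = 0.152 and 0.235), 45 probe sets of all fell against 306, and Fgfr1 1372447_at missed the threshold median centred (adjusted p = 0.0777). The numbers were not taken to pair the arrays: same-numbered deviations correlated at -0.019 over 2 pairs (-0.085 as deposited). The cause of these changes was not tested.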

Other observations

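The genes that lie next to the FGF genes in the RefSeq GRCr8 order, 3 on each side, were read after the results above were seen. Of 35 measured neighbours 5 rose and 0 fell, where 6.59% of all genes rose and 1.35% fell, and the other 30 did not pass. Near Fgf19, the cell cycle regulator Ccnd1 rose by 1.35 ± 0.08 log2 (SE, limma adjusted p = 5.79e-06) and the chloride channel Ano1 rose by 0.89 ± 0.19 log2 (SE, adjusted p = 0.00865), while the ligands Fgf3 (-0.03 log2) and Fgf4 (0.23 log2) were dim, and Lto1 (0.20 log2) and Smim38 (0.52 log2) did not pass. Next to Fgfr3, the spindle protein Tacc3 rose by 0.71 ± 0.09 log2 (SE, adjusted p = 5.05e-04), and its relative Tacc1 next to Fgfr1 differed by 0.34 ± 0.11 log2 (SE, adjusted p = 0.0667). The feedback inhibitors Spry4 and Spry1, described above, lie 2 genes from Fgf1 and 3 genes from Fgf2, both dim ligands.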
